A study of Mus musculus with 6 samples.

Results

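The MS4A genes described here are 8 members of a membrane protein family, Ms4a1, Ms4a4a, Ms4a4b, Ms4a4c, Ms4a6b, Ms4a6c, Ms4a6d and Ms4a7, taken by gene name from a deposited table of 18039 genes of which all 8 were found. They were measured in bone marrow-derived macrophages (BMDMs), which are mouse marrow cells grown into macrophages in culture with the growth factor M-CSF at 20 ng/mL for 7 days. The libraries came from 2 genotypes, Ctrl and KAT7KO, with 3 libraries each that the labels call biological replicates. KAT7 is a lysine acetyltransferase that acetylates histones. The labels give neither the strain or age of the mice, nor the part of Kat7 that was deleted and the cells in which it was, nor what alleles the Ctrl mice carried, nor how many animals gave the cells. The p-values below therefore reflect how far the libraries of a genotype spread, which may be technical.

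MS4A proteins cross the membrane several times, and their genes lie in a single cluster. Ms4a1 encodes CD20, the B cell surface protein that therapeutic antibodies against B cells bind. Other members are found on T cells, monocytes and macrophages, and in humans variants near MS4A4A and MS4A6A are tied to the amount of soluble TREM2, a receptor of macrophages and microglia. Relatives not analysed here include the high-affinity IgE receptor beta chain gene Ms4a2 and the granulocyte-monocyte progenitor gene Ms4a3.

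The 6 libraries held 19906726 to 20660090 counts over genes, so a count of 3 in a library equalled 0.145 to 0.152 CPM (counts scaled to library size). Kat7 lay between 69.0 and 73.2 CPM in Ctrl and between 38.2 and 42.2 CPM in KAT7KO. Among Ctrl libraries, replicate 1 stood apart from the others, with a mean chi-square per gene of 10.8 and 18.8 against replicates 2 and 3, where sampling noise gives 1 and the other pairs of one genotype gave 2.63 to 3.65. Of 10 macrophage defining markers all were tested, and mean CPM for Cd68, Csf1r and Adgre1 was 2621, 527 and 594 in Ctrl against 2802, 481 and 640 in KAT7KO. Of these markers 3 fell and 0 rose in KAT7KO, where 13.2% of all genes tested were lower and 10.7% higher. Lyz2 and Itgam, among those that fell, had log2 fold changes of -0.68 and -0.42. The summed level of the 10 was 27826 to 37567 CPM in Ctrl and 22560 to 23390 CPM in KAT7KO, most of it Lyz2.

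Several members are close copies of one another, which shows in the DNA upstream of their starts. The 250 bases before the start are shown for the copies with the most alike sequence, from RefSeq (GRCm38.p6, chromosome 19, all on the plus strand, 5′ to 3′), and the capitals mark the longest run of identical bases within each pair.
Ms4a4b: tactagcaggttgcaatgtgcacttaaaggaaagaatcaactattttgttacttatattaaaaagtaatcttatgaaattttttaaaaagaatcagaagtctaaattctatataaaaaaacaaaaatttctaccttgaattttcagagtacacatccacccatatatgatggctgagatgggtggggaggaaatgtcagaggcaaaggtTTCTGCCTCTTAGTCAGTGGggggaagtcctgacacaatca
Ms4a4c: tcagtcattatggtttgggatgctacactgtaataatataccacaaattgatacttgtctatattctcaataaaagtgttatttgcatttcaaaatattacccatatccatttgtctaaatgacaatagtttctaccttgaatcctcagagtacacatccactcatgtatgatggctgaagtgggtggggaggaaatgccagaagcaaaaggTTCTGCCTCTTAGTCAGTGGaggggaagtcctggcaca
Ms4a6b: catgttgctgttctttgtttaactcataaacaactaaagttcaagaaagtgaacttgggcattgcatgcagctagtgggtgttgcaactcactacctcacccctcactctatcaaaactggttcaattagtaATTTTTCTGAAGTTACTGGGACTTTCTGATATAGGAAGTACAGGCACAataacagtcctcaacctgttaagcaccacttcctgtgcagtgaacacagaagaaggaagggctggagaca
Ms4a6c: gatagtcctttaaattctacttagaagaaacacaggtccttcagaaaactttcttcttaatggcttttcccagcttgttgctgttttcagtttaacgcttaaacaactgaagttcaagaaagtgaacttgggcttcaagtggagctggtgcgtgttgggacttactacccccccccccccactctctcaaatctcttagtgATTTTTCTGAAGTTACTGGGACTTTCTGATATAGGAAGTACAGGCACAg
The pair Ms4a6b and Ms4a6c shared a run of 48 bases and was 82.4% identical over an alignment of 182 columns. The pair Ms4a4b and Ms4a4c shared a run of 20 bases and was 89.1% identical over 128 columns. The longest run in any other pair of the 7 windows compared, from the 6 members with a promoter in that table, was 9 bases.

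Promoter windows of 300 bases, 250 before and 50 after the start, held 0 to 6 CpG each for these 6 members. Ms4a1 and Ms4a6d had no window, so nothing here covers them. The median was 7 over 32851 windows of all genes, of which 47.9% held 6 or fewer. Both strands were searched for the core of an interferon-stimulated response element, TTCNNNGAA (a STAT site, GAS) and GAGGAAG (a core of sites for PU.1, the macrophage lineage factor). None of these motifs occurred in the members' 7 windows, while 3.44%, 8.30% and 13.6% of all windows held them. No match says only that these letters are not in these windows.

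The transcripts of the copies also shared stretches of sequence. Of the 50-base words in the annotated transcripts of Ms4a4c, 7.73% also occurred in Ms4a4b, and of those of Ms4a6c, 5.85% also occurred in Ms4a6b. Over all other genes, the share of words found elsewhere ran from 0 for Ms4a4a to 10.5% for Ms4a6c (GENCODE M21). Exons of Ms4a6c also overlap an opposite-strand gene, BE692007, over 1088 of 2050 bases in that annotation. Whether reads were counted by strand is not given in the sources used here, so reads from Ms4a6c and BE692007 may not be told apart, and the values of the close copies carry the same doubt for their shared words.

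MS4A levels differed widely in these macrophages, with Ms4a6d at the top and Ms4a4b at the bottom. FPKM, the authors' deposited level per length and depth, is used to set genes beside each other. Ms4a6d, a macrophage member that in mice binds the inhibitory receptor VSIG4, stood at 151 ± 15.96 FPKM in Ctrl and 166 ± 6.05 FPKM in KAT7KO (SD, n = 3). Ms4a7, a gene of macrophages and microglia, followed with 36.1 ± 2.60 FPKM in Ctrl and 36.1 ± 1.14 FPKM in KAT7KO. Together with Ms4a6c these were the 3 members with the highest levels in both genotypes.

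Ms4a6c, a gene also found in monocytes, had a level of 15.5 ± 0.478 FPKM in Ctrl and 14.9 ± 0.891 FPKM in KAT7KO. Ms4a4a, whose human counterpart is a surface protein of alternatively activated macrophages, had 11.1 ± 0.535 FPKM in Ctrl and 9.03 ± 0.659 FPKM in KAT7KO. Ms4a6b, known in mice from regulatory T cells, had 3.91 ± 0.530 FPKM in Ctrl and 3.72 ± 0.177 FPKM in KAT7KO. Ms4a4c, a gene of monocytes, had 1.02 ± 0.109 FPKM in Ctrl and 0.587 ± 0.205 FPKM in KAT7KO. The order of the 8 members was the same in both genotypes, and in neither did the libraries of one member overlap those of the next.

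The B cell gene Ms4a1 and Ms4a4b stood lowest. Ms4a1 had 0.0689 ± 0.0288 FPKM in Ctrl and 0.223 ± 0.0603 FPKM in KAT7KO, and Ms4a4b, a mouse T cell gene, had 0.0112 ± 0.00973 FPKM in Ctrl and 0.0644 ± 0.0178 FPKM in KAT7KO. Ms4a6d made up 67.1% to 70.0% of the summed FPKM of the 8 members in Ctrl and 71.6% to 72.6% in KAT7KO. The sum itself was 199 to 236 FPKM in Ctrl and 222 to 235 FPKM in KAT7KO, so the genotypes overlapped. The order rests on the gene lengths used for FPKM, which, from the ratio of count to FPKM, ran from 0.836 kb for Ms4a4a to 8.78 kb for Ms4a4b.

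**Figure D1:**
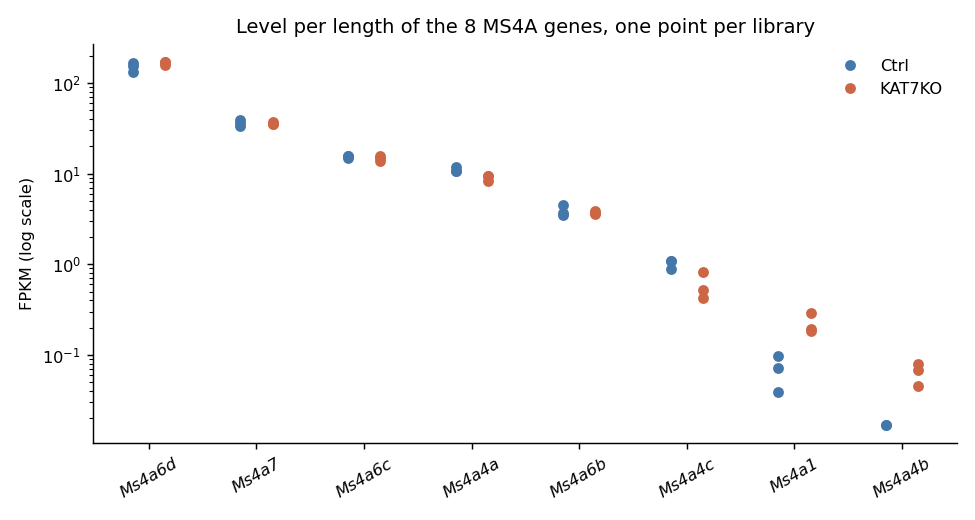
FPKM on a log axis for the 8 members, ordered by their Ctrl mean, with 1 point per library and the genotypes in different colours. Levels fall from Ms4a6d to Ms4a4b in the same order in Ctrl and KAT7KO, and the Ctrl library in which Ms4a4b had 0 counts is not drawn.

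Between the genotypes, the B cell gene Ms4a1 rose in KAT7KO and 6 myeloid-expressed members did not pass the test. Counts of all genes were compared with edgeR's quasi-likelihood test, with p-values adjusted over the 12483 genes that passed a filter on low counts. Of the 8 members 7 passed that filter, Ms4a4b being the exception. Of these 7, 1 was higher, 0 were lower and 6 did not pass, where 10.7% of all genes tested were higher and 13.2% lower. The median log2 fold change of the 7 was -0.04, and that of all genes tested 0.0023. At an unadjusted p under 0.05 there were 2 members lower, Ms4a4a and Ms4a4c. That mark is looser, all of the 13.2% called lower also meet it, and its share over all genes is not given here. DESeq2 and limma-voom also called 0 members lower. In bulk RNA, a change in the number of cells that hold a transcript and a change in RNA per cell cannot be told apart.

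**Figure D2:**
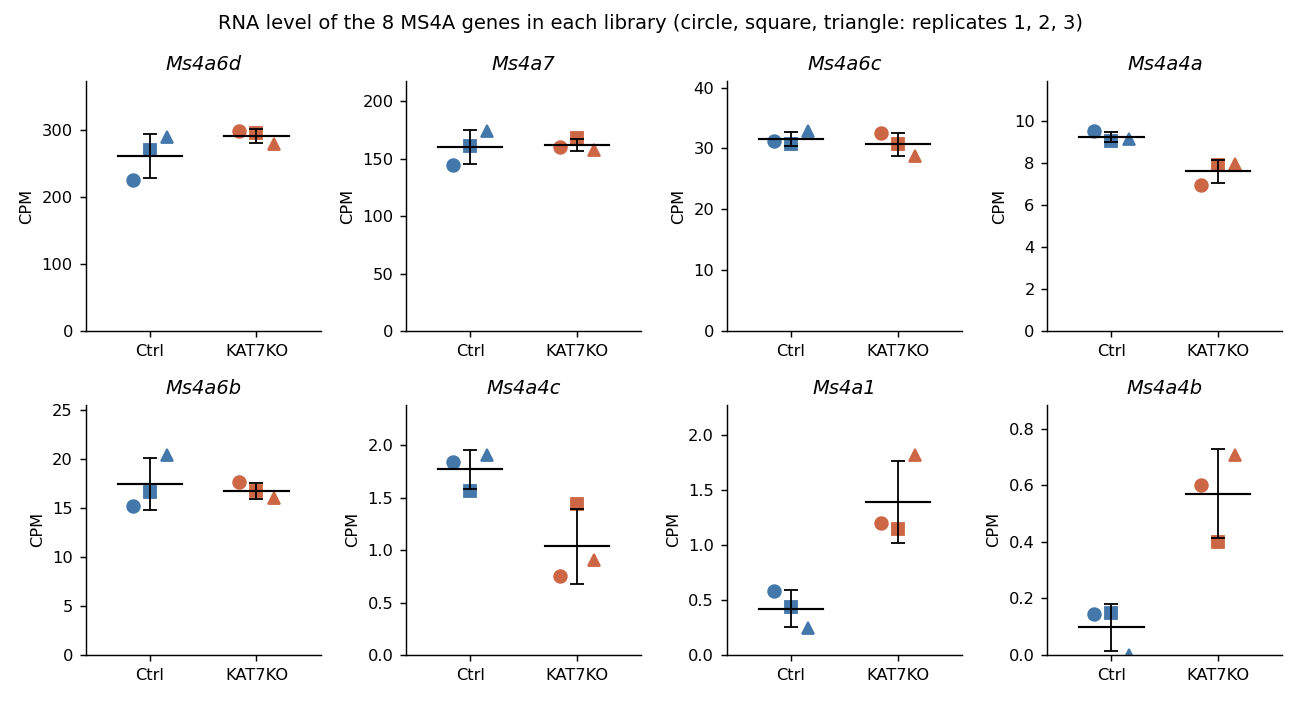
CPM of each member in each library, with the mean (line) and SD (bar) of 3 libraries, each panel on its own axis from 0. Ms4a1 and Ms4a4b are higher in every KAT7KO library than in any Ctrl library, Ms4a4a and Ms4a4c are lower in every KAT7KO library, and the other 4 members overlap.

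Ms4a1 was found in few reads in either genotype. The Ctrl libraries held 12, 9 and 5 counts and the KAT7KO libraries 24, 23 and 36 counts, or 0.580, 0.440 and 0.245 CPM against 1.203, 1.14 and 1.82 CPM. All 3 KAT7KO values were above all 3 Ctrl values, the highest in KAT7KO replicate 3 and the lowest in Ctrl replicate 3. The log2 fold change was 1.70 (SE 0.38, 95% interval 0.89 to 2.52, edgeR adjusted p = 0.00522), or 3.26-fold. The authors' deposited table gave 1.72 with an adjusted p of 0.00733. Ms4a1 reached the filter's minimum through its KAT7KO libraries, and at a change over 1.2-fold as the null its adjusted p was 0.0161.

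Ms4a4b had too few counts for the main test. The Ctrl libraries held 3, 3 and 0 counts and the KAT7KO libraries 12, 8 and 14. The genotypes did not overlap, and every KAT7KO library held more counts than the Ctrl libraries, which were at or under the limit of 3 counts. Summed over libraries and scaled to depth, the ratio of KAT7KO to Ctrl was 5.83 with an exact 95% interval of 2.42 to 17.0 that covers counting error only. With no filter on low counts, edgeR gave a log2 fold change of 2.47 and an adjusted p of 0.0122, where 7.44% of genes were higher. DESeq2 on the deposited counts gave 2.55 and called it too (adjusted p = 0.0325), where 8.82% of genes were higher.

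The abundant myeloid members differed little between genotypes. Ms4a7 stood at 145, 161 and 174 CPM in Ctrl against 160, 168 and 158 CPM in KAT7KO, so the KAT7KO libraries lay within the Ctrl range. Its log2 fold change was 0.02 (SE 0.06, edgeR adjusted p = 0.862), with an interval from 92.2% to 111% of Ctrl. Ms4a6c, at 31.2, 30.7 and 32.9 CPM in Ctrl against 32.5, 30.7 and 28.8 CPM in KAT7KO, likewise overlapped. Its interval ran from 86.9% to 109% of Ctrl (log2 fold change -0.04, edgeR adjusted p = 0.727).

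Ms4a6b was spread more in Ctrl than in KAT7KO. It stood at 15.3, 16.7 and 20.5 CPM in Ctrl against 17.7, 16.8 and 16.02 CPM in KAT7KO, and the KAT7KO libraries lay between the lowest and the highest Ctrl library. Its log2 fold change was -0.05 (SE 0.11, edgeR adjusted p = 0.747), with an interval from 82.0% to 113% of Ctrl.

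Ms4a6d turned on single Ctrl libraries. It stood at 225, 270 and 289 CPM in Ctrl against 298, 295 and 278 CPM in KAT7KO. Ctrl replicate 1 was the lowest of all, while Ctrl replicate 3 lay within the KAT7KO range. KAT7KO over Ctrl came to 0.15 on the log2 scale (SE 0.08, 95% interval -0.01 to 0.32, edgeR adjusted p = 0.167). Leaving out Ctrl replicate 3 gave 0.23 (edgeR adjusted p = 0.0158), while leaving out Ctrl replicate 1 gave 0.05 (edgeR adjusted p = 0.332).

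The remaining myeloid members had lower values in KAT7KO that did not pass. Ms4a4a stood at 9.52, 9.04 and 9.16 CPM in Ctrl against 6.97, 7.91 and 7.93 CPM in KAT7KO, and the genotypes did not overlap. On the log2 scale KAT7KO differed from Ctrl by -0.28 (SE 0.11, 95% interval -0.52 to -0.04, edgeR adjusted p = 0.0890), or 82.3% of Ctrl. Ms4a4c stood at 1.84, 1.56 and 1.91 CPM in Ctrl against 0.752, 1.44 and 0.910 CPM in KAT7KO, from 109 counts in all against 62.

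For Ms4a4c the genotypes did not overlap either, though KAT7KO replicate 2 lay close to the lowest Ctrl library. On the log2 scale KAT7KO differed from Ctrl by -0.77 (SE 0.29, 95% interval -1.40 to -0.14, edgeR adjusted p = 0.0723), or 58.7% of Ctrl with an interval from 37.9% to 90.7%. Without KAT7KO replicate 2 it was -1.09 and passed (adjusted p = 0.0403). The intervals of Ms4a4a and Ms4a4c are for one gene each and are not adjusted for the number of genes. In all, the genotypes did not overlap for 3 of the 7 members tested, against 41.0% of all genes tested. Of the 3, Ms4a1 was higher, as were 19.9% of all genes, and 2 were lower, as were 21.2%.

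**Figure D3:**
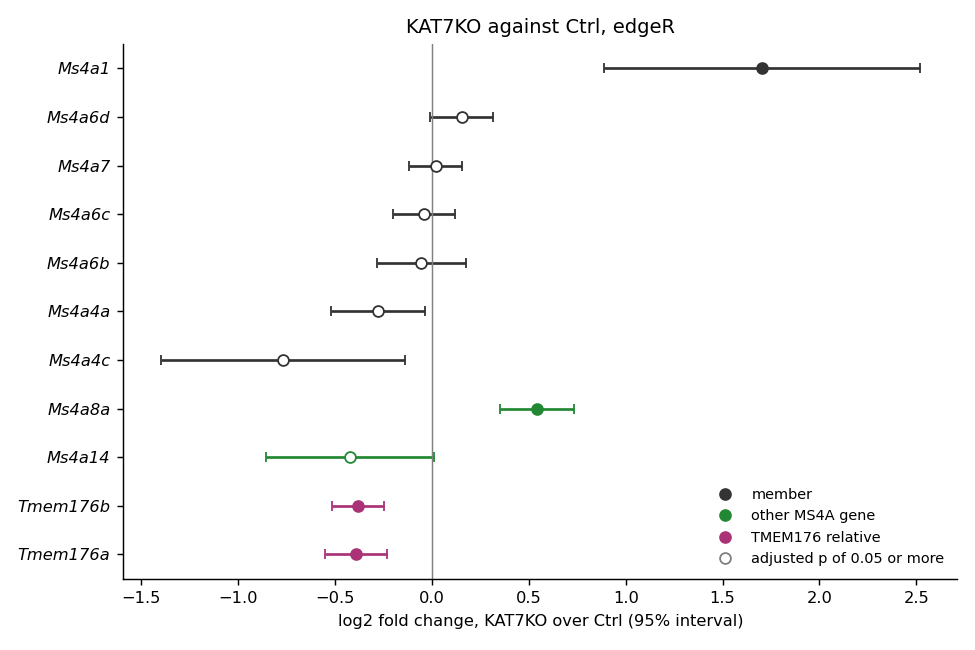
Log2 fold change, KAT7KO over Ctrl, with its 95% interval for the 7 members tested, 2 other MS4A genes and 2 TMEM176 relatives. Filled points passed an adjusted p of 0.05. Of the members this is Ms4a1 at 1.70, with Ms4a8a higher and Tmem176a and Tmem176b lower beside it.

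Ms4a1 was also set against each myeloid member within a library, which removes any scaling between libraries. The log2 ratio of Ms4a1 to Ms4a7 went from -8.32 ± 0.630 in Ctrl to -6.80 ± 0.380 in KAT7KO (SD, n = 3), a difference of 1.52. The difference between genotypes was 1.38 for the ratio to Ms4a6d, 1.58 to Ms4a6c, 1.59 to Ms4a6b, 1.82 to Ms4a4a and 2.31 to Ms4a4c. For all 6 ratios the genotypes did not overlap. The exact two-sided permutation test gave p = 0.10 for each of the 6, also after adjustment over them, which is the smallest p that 3 libraries against 3 allow. All 6 ratios share the counts of Ms4a1.

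Other B cell genes differed widely in level. Of 20 B cell markers 15 were in the table and 9 were tested, of which 3 rose, 0 fell and 6 did not pass, against 10.7% of all genes higher. The 3 were Bank1 (a B cell scaffold, log2 fold change 0.97), the inhibitory lectin gene Cd22 (0.32) and the surface glycoprotein gene Cd24a (1.06). The median of the 9 was 0.97 against 0.0023 for all genes tested. Cd79a and Fcmr, like Ms4a1, met the filter through their KAT7KO libraries, and Pou2af1 also needed KAT7KO libraries to meet it. The median is therefore no support for a direction. Cd22, Cd24a and the adaptor gene Blnk stood at 117, 90.2 and 238 CPM in Ctrl, so most of the list's total, 444 to 458 CPM in Ctrl and 580 to 606 CPM in KAT7KO, came from genes that were abundant in these cultures.

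The genes that define B cells were near the counting limit. Cd79a, a chain of the B cell receptor complex, stood at 0.387, 0.830 and 0.588 CPM in Ctrl against 1.203, 0.895 and 1.62 CPM in KAT7KO (log2 fold change 1.03, edgeR adjusted p = 0.0553). Its KAT7KO libraries were all above its Ctrl libraries. Its partner Cd79b stood at 1.11, 1.86 and 1.18 CPM in Ctrl against 2.26, 1.79 and 1.57 CPM in KAT7KO, where the genotypes overlapped (log2 fold change 0.44, edgeR adjusted p = 0.278). Pax5, the lineage factor of B cells, was below the filter, with a mean of 0.195 CPM in Ctrl and 0.268 CPM in KAT7KO.

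Ratios of summed counts put these genes on one scale with Ms4a1. The ratio of KAT7KO to Ctrl was 3.29 for Ms4a1 (exact 95% interval 2.09 to 5.32), 2.06 for Cd79a (1.37 to 3.14) and 1.96 for Bank1 (1.54 to 2.51). It was 1.36 for Cd79b (1.01 to 1.82) and 1.37 for Pax5 (0.609 to 3.18). All of these intervals cover counting error only, and those of Cd79a, Pax5 and Bank1 overlap that of Ms4a1 while that of Cd79b does not. Over the 15 B cell genes listed the ratio ran from 0.343 for Fcer2a, from 3 and 1 counts, to 2.65 for Pou2af1 (1.39 to 5.31). Fcmr had 2.19, while Blnk (1.02) and Ebf1 (1.03) differed little between genotypes. None of the 15 was at 0 in all libraries of a genotype. The part of B cells in the rise of Ms4a1 was not tested.

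For Ms4a4b the matching list is that of T and NK cells. Of 15 such markers 13 were in the table and 3 were tested, Lck, Cd2 and Il2rb, of which 0 passed in either direction (log2 fold changes 0.19, -0.19 and 1.03). Il2rb, like Ms4a1, met the filter through its KAT7KO libraries (means 0.292 CPM in Ctrl and 0.601 CPM in KAT7KO). The summed level of the 13 was 2.20 to 2.84 CPM in Ctrl and 3.08 to 3.84 CPM in KAT7KO. The T cell receptor chain gene Cd3e had a mean of 0.130 CPM in Ctrl and 0.167 CPM in KAT7KO. Cd3d, Cd6, Gzma and Cd247 were at 0 in all Ctrl libraries, and 0 genes of the list in all KAT7KO libraries. Over the KAT7KO libraries these 4 held only 13, 11, 3 and 4 counts. The share of all genes at 0 throughout a genotype is not given here, so this is no result about the list. In the KAT7KO libraries Cd3d had means of 0.218 CPM and Cd6 of 0.184 CPM. Klrb1c and Cd5 went the other way, with means of 0.228 and 0.113 CPM in Ctrl against 0.133 and 0.067 CPM in KAT7KO. All of these genes rest on few counts. The part of T or NK cells in the Ms4a4b counts was not tested.

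**Figure D4:**
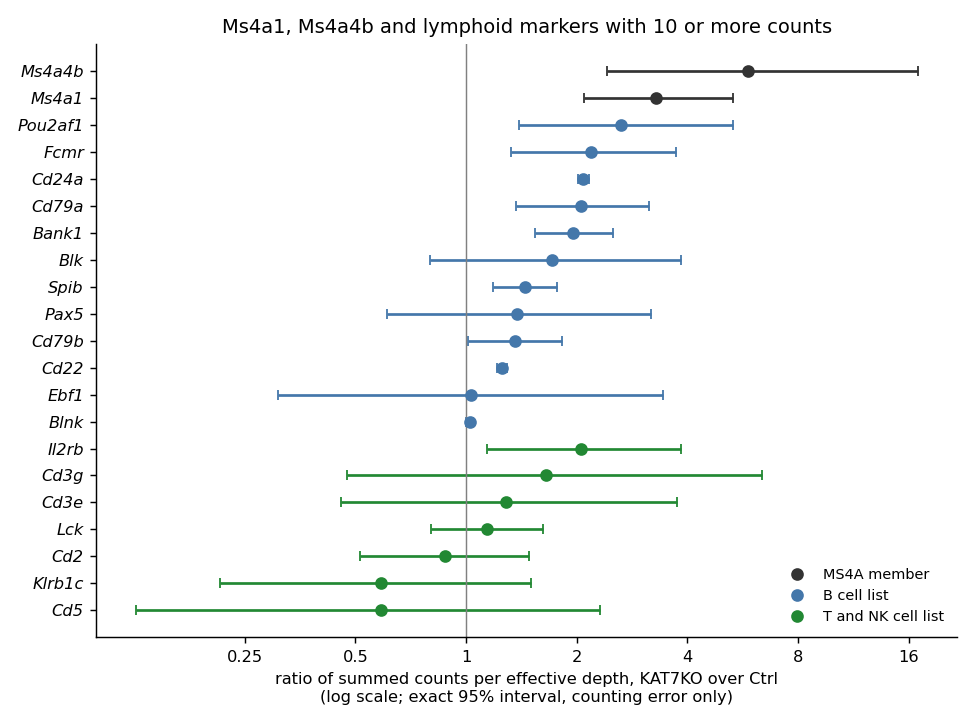
Ratio of summed counts, KAT7KO over Ctrl, scaled to depth, on a log axis with exact 95% intervals for counting error only, for Ms4a1, Ms4a4b and those B cell and T and NK cell markers reported here that had at least 10 counts in all and were not at 0 in Ctrl. Ms4a4b (5.83) and Ms4a1 (3.29) have the highest ratios drawn, and the intervals of most rare markers are wide. Cd3d and Cd6, at 0 in Ctrl with 13 and 11 counts in KAT7KO, have no finite ratio and are not drawn.

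Family genes outside the 8 went both ways. Ms4a8a, a mouse macrophage gene linked to alternative activation, stood at 21.6, 26.3 and 26.3 CPM in Ctrl against 37.9, 36.7 and 33.6 CPM in KAT7KO, with every KAT7KO library above every Ctrl library. It rose by 0.54 on the log2 scale (SE 0.09, edgeR adjusted p = 0.000615), or 1.46-fold. The distant relatives Tmem176a and Tmem176b, which encode membrane proteins of similar form, fell by 0.39 and 0.38 (edgeR adjusted p = 0.00195 and 0.000665). Ms4a14 had a log2 fold change of -0.42 that did not pass (edgeR adjusted p = 0.149), and Ms4a4d, at 0.325 CPM in Ctrl against 0.418 CPM in KAT7KO, was under the filter.

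Of 21 MS4A genes in RefSeq order along the chromosome (GRCm38.p6), 11 were in the table and 9 were tested. Ms4a8a and Ms4a1, the 2 that rose, are the first and second of the tested genes in that order, and Ms4a14 comes next. Beyond the cluster, of the 10 protein-coding genes on either side, 12 of 20 were in the table and 8 were tested. Stx3, a membrane fusion gene, rose by 0.23 and Mrpl16, a mitochondrial ribosomal protein gene, by 0.27, both on the side of Ms4a6d (edgeR adjusted p = 0.0107 and 0.0347). Tmem132a, on the side of Ms4a8a, fell by 0.49 (edgeR adjusted p = 1.66e-05). Thus 2 of the 8 flanking genes tested rose and 1 fell, against 10.7% and 13.2% of all genes.

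**Figure D5:**
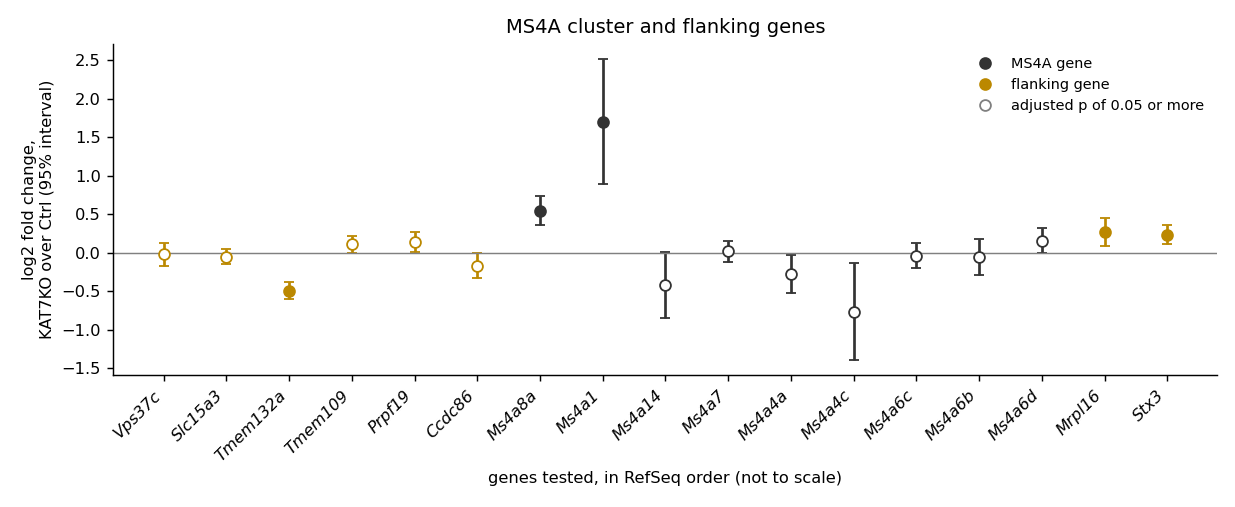
Log2 fold change, KAT7KO over Ctrl, with 95% intervals for the MS4A genes and flanking genes tested, in their RefSeq order and not to scale. Some genes drawn next to each other differ in the size of their change. Ms4a1 at 1.70 is drawn beside Ms4a14 at -0.42, which did not pass.

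Partners of MS4A proteins went both ways. Of 10 genes of partners and related receptors 2 rose, 1 fell and 7 did not pass, where 23.9% of all genes tested were called in either direction, and the median log2 fold change was 0.11. Fcgr2b, the inhibitory Fc receptor gene, rose by 0.55 (edgeR adjusted p = 1.96e-06) and Clec7a, which encodes the fungal receptor Dectin-1 that binds MS4A4A in humans, by 0.23 (edgeR adjusted p = 0.00324). Fcgr3, an activating Fc receptor gene, fell by 0.27 (edgeR adjusted p = 0.00187). Trem2 stood at 965, 1073 and 1140 CPM in Ctrl against 1148, 1190 and 1139 CPM in KAT7KO and did not pass (log2 fold change 0.13, edgeR adjusted p = 0.118). Its Ctrl replicate 1 was the lowest library, as for Ms4a6d and Ms4a7.

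Vsig4, the gene of the MS4A6D partner, stood at 4.40, 5.52 and 5.34 CPM in Ctrl against 12.5, 15.2 and 12.8 CPM in KAT7KO. It rose by 1.41 on the log2 scale (SE 0.13, edgeR adjusted p = 4.93e-06), with no overlap between genotypes, while Ms4a6d did not pass. Vsig4 is on a list of 14 resident macrophage markers, of which 12 were tested. Of these, 3 rose, 4 fell and 5 did not pass, where 10.7% of all genes tested were higher and 13.2% lower. Timd4, among those that rose, met the filter through its KAT7KO libraries (means 0.113 CPM in Ctrl and 0.518 CPM in KAT7KO). The median log2 fold change of the 12 was -0.04. C1qa, C1qc and Gas6 fell by 0.81, 0.64 and 0.77.

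Programs in which Ms4a4c and Ms4a6c are known in mice, those of monocytes and of the interferon response, were read beside them. Of 14 monocyte markers tested 5 rose, 2 fell and 7 did not pass, where 10.7% of all genes tested were higher and 13.2% lower. The median log2 fold change of the 14 was 0.31. S100a4, among those that rose, and Treml4 met the filter through their KAT7KO libraries, so the median is no support for a direction. F13a1, a transglutaminase gene, rose by 0.99, the chitinase-like gene Chil3 by 0.72 and the haemoglobin-binding gene Hp by 0.52. The matrix genes Vcan and Fn1 fell by 0.84 and 0.60. The list's summed level was 940 to 1284 CPM in Ctrl and 790 to 822 CPM in KAT7KO, most of it Fn1. The classical monocyte genes Ly6c2 and Ccr2 stood at 2.03 and 1.19 CPM in Ctrl against 1.99 and 1.12 CPM in KAT7KO. Of 28 type I interferon response genes tested 18 fell, 0 rose and 10 did not pass, where 13.2% of all genes tested were lower and 10.7% higher. The median log2 fold change of the 28 was -0.43. Mx2, among those that fell, met the filter through its Ctrl libraries. Oasl2, Irf7, Rtp4 and Oas3 had the lowest p and fell by 1.00, 0.84, 0.93 and 0.81. Beside these values Ms4a4c stood at -0.77 and Ms4a6c at -0.04 on the same log2 scale, and neither passed (edgeR adjusted p = 0.0723 and 0.727).

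Markers of mast cells, neutrophils and dendritic cells were read as lists of other cells that the cultures could hold. Of 5 mast cell and basophil markers tested, Tpsb2 fell by 1.07 and 4 did not pass, all with log2 fold changes below 0. Tpsb2 met the filter through its Ctrl libraries. The genotypes did not overlap in the list's summed level of 5.44 to 6.81 CPM in Ctrl and 3.93 to 4.96 CPM in KAT7KO. Of 3 neutrophil markers tested, S100a8 rose by 0.86 and Mmp8 by 0.47, and Prtn3 did not pass (log2 fold change -0.47, edgeR adjusted p = 0.186). Mpo was at 0 in all KAT7KO libraries and Ngp in all Ctrl libraries. The summed level of that list was 23.6 to 26.3 CPM in Ctrl and 33.1 to 37.0 CPM in KAT7KO, most of it Mmp8 and S100a8. Of 4 dendritic cell markers tested, Itgax fell by 0.20 and 3 did not pass, and the list's sum was 194 to 245 CPM in Ctrl and 185 to 193 CPM in KAT7KO. Over all genes tested, 10.7% were higher and 13.2% lower. The part of these cells in the values of the members was not tested.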

How the data were processed

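Groups and replicate numbers came from the sample titles. One deposited table held raw counts per gene for each library, which the authors deposited without normalization. Its FPKM columns are, per the file headers, the authors' level per length and depth. Its log2 fold change column and its p-value columns are the authors' own and were deposited with it. FastQC, fastp, HISAT2, featureCounts, DESeq2 and the build GRCm39 stand in the submitters' processing notes, without roles. Only a GRCm38 reference was used here, and coordinates are left out.

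KAT7KO was compared with Ctrl by the quasi-likelihood test of edgeR 4.0.16, run in R 4.3.3 on TMM-scaled counts (filterByExpr by group, robust glmQLFit, glmQLFTest, no block), with Benjamini-Hochberg adjustment over 12483 genes and a threshold of 0.05. SE is the log2 fold change divided by the square root of F. Log2 ratios used log2 CPM with a prior count of 2. The procedure was tested on simulated data. Alternatives were other scalings and filters, DESeq2 1.42.0, limma-voom (limma 3.58.1), a replicate block, leaving out each library and glmTreat at 1.2-fold.

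The members and lists were chosen with earlier results of these data known. Named genes were the members, all other MS4A genes listed, Tmem176a and Tmem176b, and the flanking genes. From each list came the 4 called genes with the lowest p, or at least 2 by level. Other genes were named after their values were seen. These were defining markers of B, T and myeloid cells, Vsig4, Fn1, genes at 0 and genes named for how they met the filter. Some marker genes counted in the lists are not reported here by name.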

Additional observations from a re-analysis of the deposited data

How the results depend on the processing

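The rise of Ms4a1 passed under all 14 alternatives. Its log2 fold change was 1.69 to 1.72 over scalings, filters, tools, the replicate block (1.69, adjusted p = 0.0124) and glmTreat. With 1 library left out it was 1.43 to 2.00 (adjusted p = 0.000789 to 0.0403). The 14 reuse the same few counts, and where a low-count filter was set Ms4a1 met it through its KAT7KO libraries. They are therefore not independent support for the rise. The replicate numbers did not pair the libraries (correlations of deviations -0.0044, 0.0059 and 0.02 across genes), and the block left 1 member higher and 0 lower. Members called higher numbered 2, Ms4a1 and Ms4a4b, with no filter on low counts and with DESeq2, and 1 to 3 with 1 library left out, since the filter then let Ms4a4b in. The third, without Ctrl replicate 3, was Ms4a6d. Members called lower numbered 0 to 1 with a library left out.

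With 1 library left out, log2 fold changes ran from -1.09 to -0.59 for Ms4a4c, 0.053 to 0.23 for Ms4a6d, -0.14 to 0.076 for Ms4a6b, -0.087 to 0.0040 for Ms4a6c and -0.052 to 0.085 for Ms4a7, so the last 3 changed sign. Ms4a6b was 0.076 without Ctrl replicate 3, Ms4a6c 0.0040 without KAT7KO replicate 3, and Ms4a7 -0.052 without Ctrl replicate 1 and -0.0094 without KAT7KO replicate 2. The cause was not tested. A prior count of 0.5, chosen after seeing the data, raised the difference in the ratio of Ms4a1 to Ms4a7 to 1.69. Depth limits Ms4a1 and Ms4a4b, with 26 and 6 counts over the Ctrl libraries.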

Other observations

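Genes with the profile most like that of Ms4a1 over the 6 libraries, by the root mean square difference of centred log2 CPM among 11516 genes, were Clec1b (0.274), Soat2 (0.295), Ctse (0.325), Klra2 (0.341) and Slamf6 (0.346). Clec1b encodes a C-type lectin receptor known from platelets, Soat2 a cholesterol-esterifying enzyme and Ctse the protease cathepsin E. Klra2 encodes a receptor of the Ly49 family, and Slamf6 a lymphocyte receptor. All 5 rose, with edgeR log2 fold changes of 1.52, 1.28, 1.72, 1.17 and 1.37. For Ms4a6d the nearest profiles were those of Oaz1 (0.0127), Btf3 (0.0176), Alyref (0.0220), Scand1 (0.0222) and Mcub (0.0223), none of which passed the test, with log2 fold changes of 0.12 to 0.17. These genes were chosen by likeness over the same libraries, so fold changes like those of Ms4a1 and Ms4a6d follow from the choice. The likeness is a description over 2 genotypes of 3 libraries each.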
